A study of Mus musculus with 6 samples.

Results

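Mast cells and basophils are granulated effector cells of allergy and of the defence against parasites, which arise from haematopoietic stem and progenitor cells of the bone marrow. IgE bound to the high-affinity receptor FcεRI arms both cell types, and cross-linking of the receptor by antigen releases histamine and proteases from the granules. Transcripts of this program are known at low levels from early progenitors, before granules are formed. Here 10 of its genes, out of 45706 genes in the deposited count table, were followed in LSK cells, the Lin- Sca-1+ c-Kit+ fraction of the bone marrow that holds haematopoietic stem cells and multipotent progenitors. They were chosen by name and role, with earlier results of these data known. The receptor genes are Ms4a2 and Fcer1a, for the β and α chains of FcεRI, and Il1rl1, for the IL-33 receptor ST2. The protease genes are Cpa3 (mast cell carboxypeptidase A3), Cma1 (mast cell chymase), Gzmb (granzyme B), and the basophil proteases Mcpt8 and Prss34. Hdc encodes histidine decarboxylase, which makes histamine, and Mitf a transcription factor that mast cells require.

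The study compared 3 Ctrl mice (Setd1b HET, FD/+; RC/+) with 3 cKO mice (Setd1b HOM, FD/FD; RC/+), all male C57BL/6 littermates by the labels and the study's text, with 1 RNA-seq library per mouse. Setd1b encodes a histone H3 lysine 4 methyltransferase, and recombination of the FD allele removes exon 5 and shifts the reading frame. Both groups carried Rosa26-Cre-ERT2 (RC/+), which is active in nearly all tissues and not in blood cells alone, and both received tamoxifen in doses of 4.5 mg by gavage, so that the Ctrl mice, too, have 1 recombined allele. Cells were sorted 3 days after the last dose from mice of 16 weeks, except cKO mouse AH74, which was 17 weeks old. The lineage cocktail held antibodies against T cell, B cell, natural killer cell (NK1-1) and erythroid (TER-119) antigens, Gr-1 and CD11b, which basophils also carry, and none against FcεRI.

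Total counts ran from 13003573 to 21277519 per library, and 3 counts, taken as the floor, equalled 0.143 to 0.230 CPM, the read count relative to the library total after scaling with TMM factors. The total Setd1b transcript, which counts per gene cannot resolve into exons, was not lower but higher in the cKO libraries (log2 fold change 0.46 ± 0.07 SE, adjusted p = 0.0015), so that the count table does not check the genotype and the groups are given as labelled. The library numbers in the table fall into 2 series of 3 libraries each, taken here from the header alone. Series 1 holds cKO AI02, cKO AI55 and Ctrl AI03, and series 2 holds cKO AH74, Ctrl AI54 and Ctrl AI56.

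In the libraries labelled cKO, 6 of the 10 genes were lower than in Ctrl, namely Ms4a2, Il1rl1, Cpa3, Cma1, Gzmb and Prss34, and none was higher (quasi-likelihood test of edgeR, p-values adjusted after Benjamini and Hochberg over 15184 genes, threshold 0.05). Among all genes tested, 3.79% were called lower and 3.88% higher, 7.67% together. The falls were uneven, from 1.91-fold for Cpa3 to 23.8-fold for Gzmb in the mean CPM, and Prss34 was not detected in any cKO library. Fcer1a and Hdc had lower means and Mcpt8 and Mitf slightly higher means, all 4 without passing the threshold. At an unadjusted p under 0.05, edgeR gave 8 members lower and 0 higher, and DESeq2 gave 7 lower and 0 higher. The share of all genes at this unadjusted level is not given here, so these counts have no background to be read against. Both counts of lower members include Gzmb and Prss34. The 3 cKO values lay below the 3 Ctrl values for 6 members, against 13.4% of all genes, and above them for 1 member, Mitf, against 14.0% of all genes. All 10 members passed the filter on low counts, which asked for 3 libraries with at least 0.672 CPM before TMM scaling. Prss34 and Gzmb passed it only through their Ctrl libraries, so that their direction was fixed by the filter. Cma1 passed it with 2 Ctrl libraries and 1 cKO library. The median log2 fold change of the members was -1.58, and that of all genes tested was 2.3e-04. In RNA of a sorted cell population, fewer cells that express a gene and less RNA of that gene per cell cannot be told apart.

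**Figure D1:**
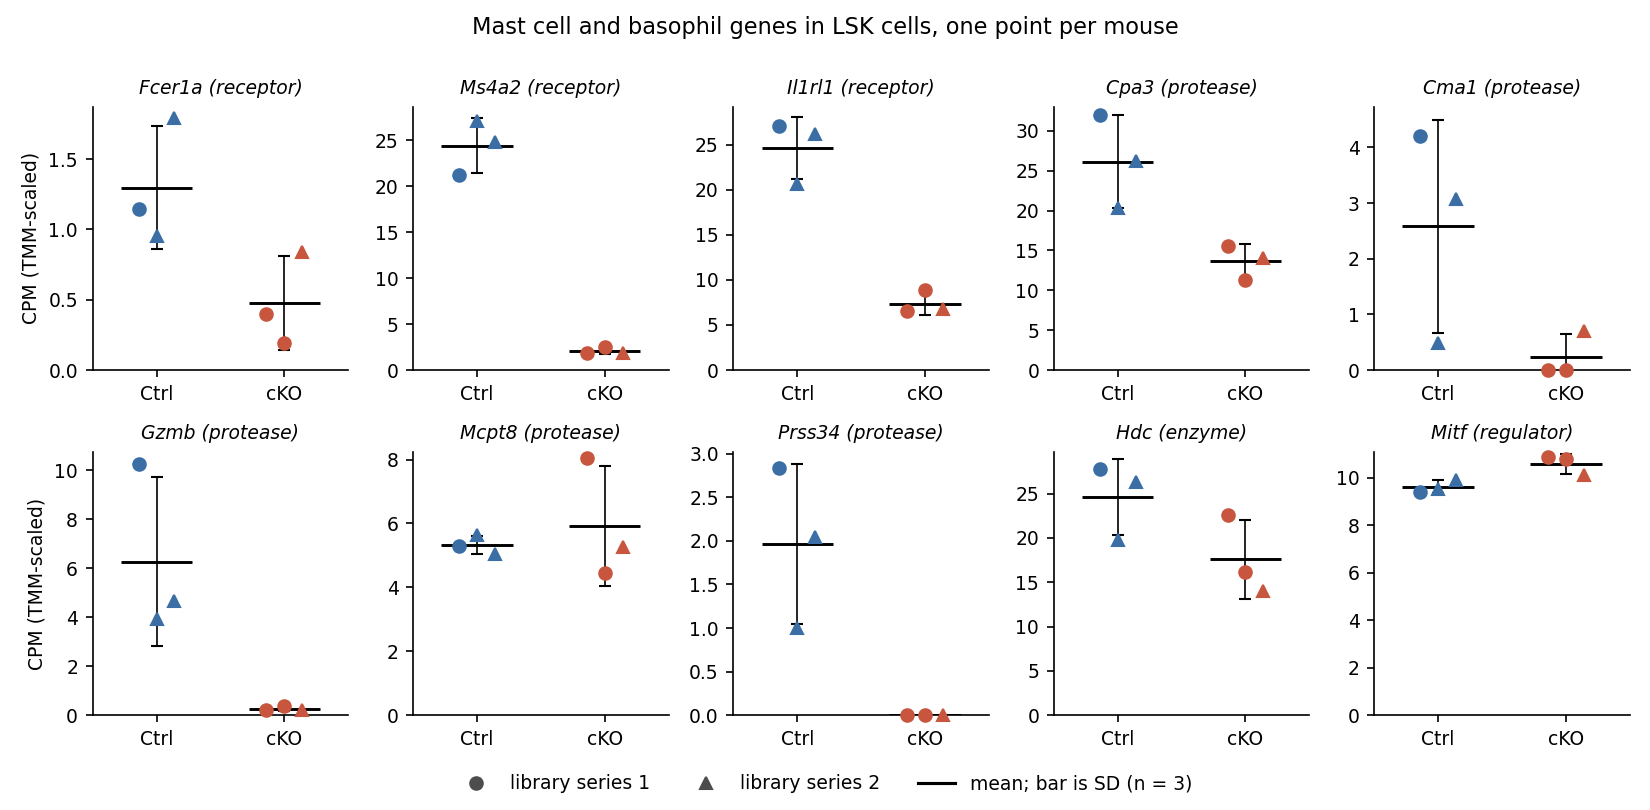
CPM of the 10 genes in each of the 3 Ctrl and 3 cKO mice on linear axes from 0, 1 panel per gene, with 1 point per mouse shaped by library series, a line at the group mean and a bar for the SD. Ms4a2, Il1rl1, Gzmb and Prss34 separate the groups widely, while the Mcpt8 and Hdc values overlap.

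The receptor genes differed most in Ms4a2. Ms4a2, the β chain that amplifies the signal of FcεRI (ENSMUSG00000024680, chr19:11615523-11623719, minus strand), had 21.2 CPM in Ctrl AI03, 27.1 in Ctrl AI54 and 24.8 in Ctrl AI56. It had 1.88 CPM in cKO AI02, 2.48 in cKO AI55 and 1.89 in cKO AH74. The 3 cKO libraries were close to one another and far below each Ctrl library. The mean fell from 24.4 ± 2.99 CPM (SD, n = 3) to 2.08 ± 0.342 CPM (SD, n = 3), which is 8.54% of the Ctrl mean (log2 fold change -3.54 ± 0.18 SE, adjusted p = 1.5e-08).

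Il1rl1, the receptor by which IL-33 activates mast cells and basophils (ENSMUSG00000026069, chr1:40429570-40465415, plus strand), reached 27.1, 20.6 and 26.2 CPM in Ctrl AI03, AI54 and AI56. In cKO AI02, AI55 and AH74 it reached 6.50, 8.83 and 6.80 CPM. The groups did not overlap, and even the highest cKO library stayed under the lowest Ctrl library by more than the range of either group. The mean fell 3.34-fold, from 24.6 ± 3.49 to 7.38 ± 1.27 CPM (log2 fold change -1.73 ± 0.16 SE, adjusted p = 8.3e-06).

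Fcer1a, the IgE-binding α chain (ENSMUSG00000005339, chr1:173221284-173227214, minus strand), was scarce in these cells. The Ctrl libraries AI03, AI54 and AI56 held 15, 20 and 28 reads (1.15, 0.953 and 1.79 CPM), and the cKO libraries AI02, AI55 and AH74 held 6, 3 and 12 reads (0.402, 0.191 and 0.842 CPM). Every cKO value was below every Ctrl value, but cKO AH74 lay just under Ctrl AI54. The log2 fold change of -1.44 ± 0.56 SE did not pass the threshold (adjusted p = 0.14). It ranged from -2.11 without cKO AH74 (adjusted p = 0.094) to -1.05 without cKO AI55 (adjusted p = 0.38). From the pooled reads, 63 in Ctrl against 21 in cKO, the ratio was 2.71 with a 95% exact interval of 1.63 to 4.68, which covers counting error only and not the spread between mice.

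**Figure D2:**
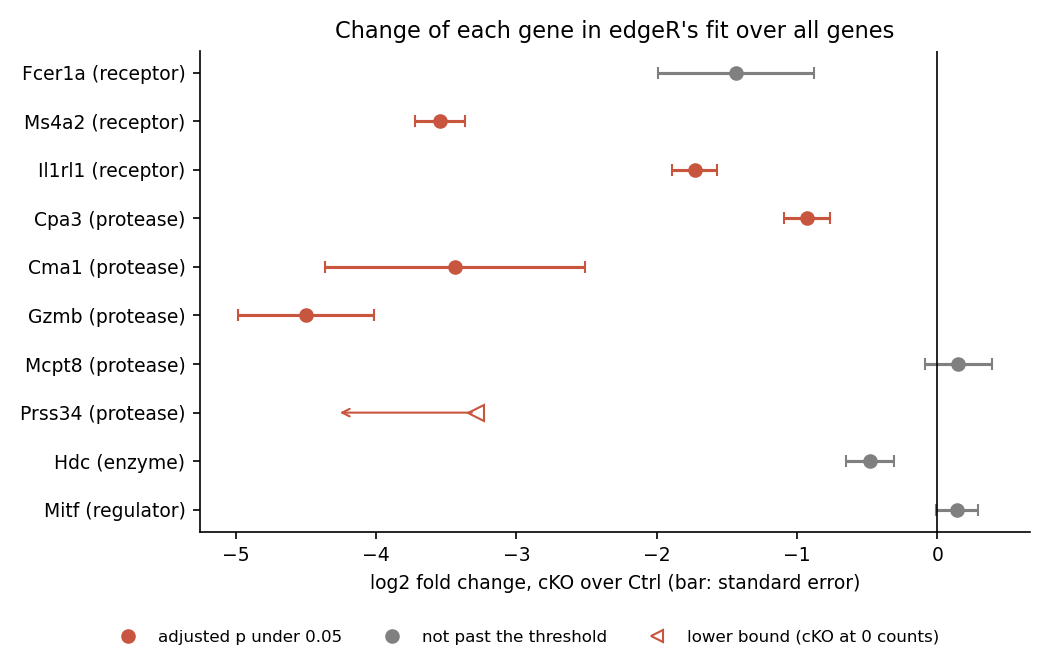
Log2 fold change of each member, cKO over Ctrl, from the edgeR fit with bars of 1 standard error, ordered from receptors to proteases, enzyme and regulator, and colored where the threshold was passed. Prss34, absent from the cKO libraries, is drawn at its bound with an arrow, and the bars of Mcpt8 and Mitf reach across 0 while those of Ms4a2, Il1rl1, Cpa3 and Gzmb lie well below it.

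Of the 5 protease genes, 4 fell and Mcpt8 did not. Cpa3, the carboxypeptidase stored in mast cell granules (ENSMUSG00000001865, chr3:20215620-20242181, minus strand), gave 32.0, 20.3 and 26.2 CPM in Ctrl AI03, AI54 and AI56. It gave 15.6, 11.3 and 14.1 CPM in cKO AI02, AI55 and AH74. The values did not overlap, and cKO AI02 came nearest to a Ctrl library. The mean was 26.2 ± 5.84 CPM in Ctrl and 13.7 ± 2.18 CPM in cKO, the smallest of the 6 falls (log2 fold change -0.93 ± 0.16 SE, adjusted p = 0.0028).

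Gzmb, a serine protease known from the granules of cytotoxic lymphocytes that mast cells also make (ENSMUSG00000015437, chr14:56258856-56262260, minus strand), was counted 134, 82 and 73 times in Ctrl AI03, AI54 and AI56. Only 3, 6 and 3 reads were found in cKO AI02, AI55 and AH74. The groups were far apart, with 2 of the 3 cKO libraries at the floor. The mean fell from 6.28 ± 3.46 to 0.264 ± 0.101 CPM (log2 fold change -4.50 ± 0.49 SE, adjusted p = 4.7e-05). The ratio of the pooled reads, 289 against 12, was 21.8 with a 95% exact interval of 12.3 to 42.7 for counting error.

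Prss34, a protease of basophils also named mMCP-11 (ENSMUSG00000056399, chr17:25298394-25300161, plus strand), had 37, 21 and 32 reads in Ctrl AI03, AI54 and AI56, and 0 reads in all 3 cKO libraries. In CPM these were 2.83, 1.0 and 2.05, against a limit of 0.191 to 0.210 CPM that a count of 0 allows in the cKO libraries. Set against this floor of 3 counts per library, the mean of the cKO libraries was at least 9.77-fold lower (adjusted p = 8.0e-04).

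Cma1, the chymase of connective tissue mast cells (ENSMUSG00000022225, chr14:55941453-55944661, minus strand), varied most among the Ctrl mice. It had 55, 10 and 48 reads in Ctrl AI03, AI54 and AI56, and 0, 0 and 10 reads in cKO AI02, AI55 and AH74. The groups overlapped, since cKO AH74 at 0.701 CPM exceeded Ctrl AI54 at 0.477 CPM. The mean was 2.59 ± 1.91 CPM in Ctrl and 0.234 ± 0.405 CPM in cKO, and the change only just passed the threshold (log2 fold change -3.44 ± 0.93 SE, adjusted p = 0.036). It missed the threshold without cKO AI02, cKO AI55, Ctrl AI03 or Ctrl AI56 (adjusted p = 0.12, 0.15, 0.11 and 0.12) and with DESeq2 (adjusted p = 0.33), and over all alternatives that tested it the adjusted p ran from 7.5e-08 to 0.33. Without cKO AH74 both cKO libraries that remained were at 0 and the fitted log2 fold change was -8.35 (adjusted p = 0.012).

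Mcpt8, a granule protease by which mouse basophils are recognized (ENSMUSG00000022157, chr14:56082166-56085216, minus strand), had 5.28, 5.63 and 5.05 CPM in Ctrl AI03, AI54 and AI56. It had 8.04, 4.45 and 5.26 CPM in cKO AI02, AI55 and AH74. The cKO values lay on both sides of the narrow Ctrl range. The log2 fold change was 0.15 ± 0.24 SE (adjusted p = 0.77), with an interval of -0.32 to 0.62 over 1.96 standard errors, and was -0.14 without cKO AI02 and 0.32 without cKO AI55.

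Hdc was among the more abundant members (ENSMUSG00000027360, chr2:126593667-126619299, minus strand), with 27.8, 19.7 and 26.4 CPM in Ctrl AI03, AI54 and AI56. It was measured at 22.6, 16.2 and 14.0 CPM in cKO AI02, AI55 and AH74. The groups overlapped because cKO AI02 stood above Ctrl AI54. The log2 fold change of -0.48 ± 0.17 SE missed the threshold (adjusted p = 0.10). It passed with the library series as a covariate (-0.61, adjusted p = 0.027), without cKO AI02 (-0.70, adjusted p = 0.025), without Ctrl AI54 (-0.62, adjusted p = 0.037) and without a filter on low counts (adjusted p = 0.0069).

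Mitf, which mast cells need for the expression of Kit and of granule proteases (ENSMUSG00000035158, chr6:97807058-98021349, plus strand), was the steadiest of the 10 genes. Its level was 9.41, 9.53 and 9.92 CPM in Ctrl AI03, AI54 and AI56, and 10.9, 10.8 and 10.1 CPM in cKO AI02, AI55 and AH74. The cKO values all lay above the Ctrl values, by a small margin. The log2 fold change was 0.14 ± 0.15 SE (adjusted p = 0.64), with an interval of -0.15 to 0.43 over 1.96 standard errors.

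The mice of a group did not differ in the same way for all genes. Ctrl AI54 had the lowest Ctrl value for 7 of the 10 members and the highest for 2, Ms4a2 and Mcpt8. Ctrl AI03 had the highest Ctrl value for 6 members. Summed over the 10 genes, the level was 109.3 to 141.2 CPM in the Ctrl libraries and 53.9 to 66.1 CPM in the cKO libraries, without overlap.

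Within each library series the 6 called genes had the same direction. They had been called over these same libraries, so this agreement is a description and no separate support. For Gzmb and Prss34 the direction was fixed by the filter, and Prss34 had 0 reads in the cKO libraries of both series. The log2 difference of cKO from Ctrl in series 1 and series 2 was -3.22 and -3.69 for Ms4a2, and -1.82 and -1.75 for Il1rl1. For Cpa3 it was -1.26 and -0.70, for Gzmb -4.67 and -3.71, and for Cma1 -5.10 and -0.75. The Cma1 difference thus came mainly from series 1, where both cKO libraries were at 0. For Fcer1a it was -1.64 and -0.57, for Hdc -0.54 and -0.70, for Mcpt8 0.18 and -0.02, and for Mitf 0.20 and 0.05.

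Fcer1g encodes the γ chain that FcεRI shares with other Fc receptors, and its log2 fold change was -0.18 (adjusted p = 0.42). The log2 ratio of Ms4a2 to Fcer1g reads within a library was 0.18 ± 0.28 (SD, n = 3) in Ctrl and -3.17 ± 0.18 (SD, n = 3) in cKO. This ratio was chosen after the values had been seen and is given as a description, without a test.

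To set the genes against one another, CPM were divided by the exon length in kilobases. On this scale Cpa3 was the most abundant member in Ctrl with 17.2 CPM per kb, followed by Ms4a2 with 8.67 and Mcpt8 with 6.22 CPM per kb, and these 3 did not overlap one another in any Ctrl mouse. Gzmb, Hdc and Il1rl1 followed with mean levels of 4.43, 3.85 and 3.57 CPM per kb, and each overlapped its neighbors in this order, Gzmb also Mcpt8. Cma1, Prss34, Mitf and Fcer1a had mean levels of 2.41, 1.61, 1.55 and 1.30 CPM per kb, and the ranges of neighbours in this order overlapped too. In the cKO libraries Cpa3 still had the highest mean, 9.01 CPM per kb, and Mcpt8 came next at 6.92 CPM per kb, with overlapping ranges. Ms4a2 dropped to a level of 0.740 CPM per kb, below Hdc at 2.75, Mitf at 1.70 and Il1rl1 at 1.07 CPM per kb.

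**Figure D3:**
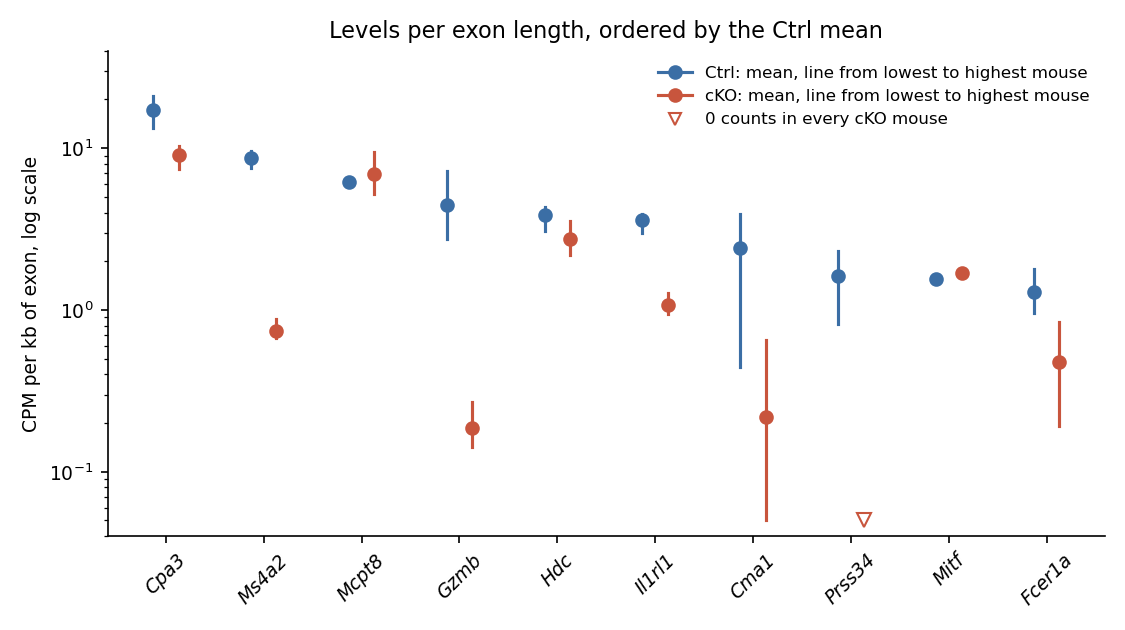
Level of each member in CPM per kb of exon on a logarithmic axis, with points at the group mean and lines from the lowest to the highest of the 3 mice, ordered by the Ctrl mean. Values under 0.05 are drawn at 0.05, which holds for the lower end of the cKO line of Cma1 and for Prss34 in cKO (open triangle), and the Ctrl and cKO points of Mcpt8 and Mitf lie close together.

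Cma1, Mcpt8 and Gzmb lie in 1 cluster of serine protease genes on chromosome 14. From Cma1 to Gzmb the cluster spans 320808 bases and holds 15 protease genes, of which 8 had no read in any library and 3 more had at most 8 reads in a library. Of the 4 genes with enough reads for the test, Cma1, Gzmb and Ctsg fell, and Mcpt8, which lies between them, did not. Among all genes tested, 3.79% were called lower. Ctsg, for cathepsin G of neutrophil and mast cell granules, was lower with a mean of 238 CPM in Ctrl and 98.5 CPM in cKO (log2 fold change -1.27, adjusted p = 1.2e-05).

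**Figure D4:**
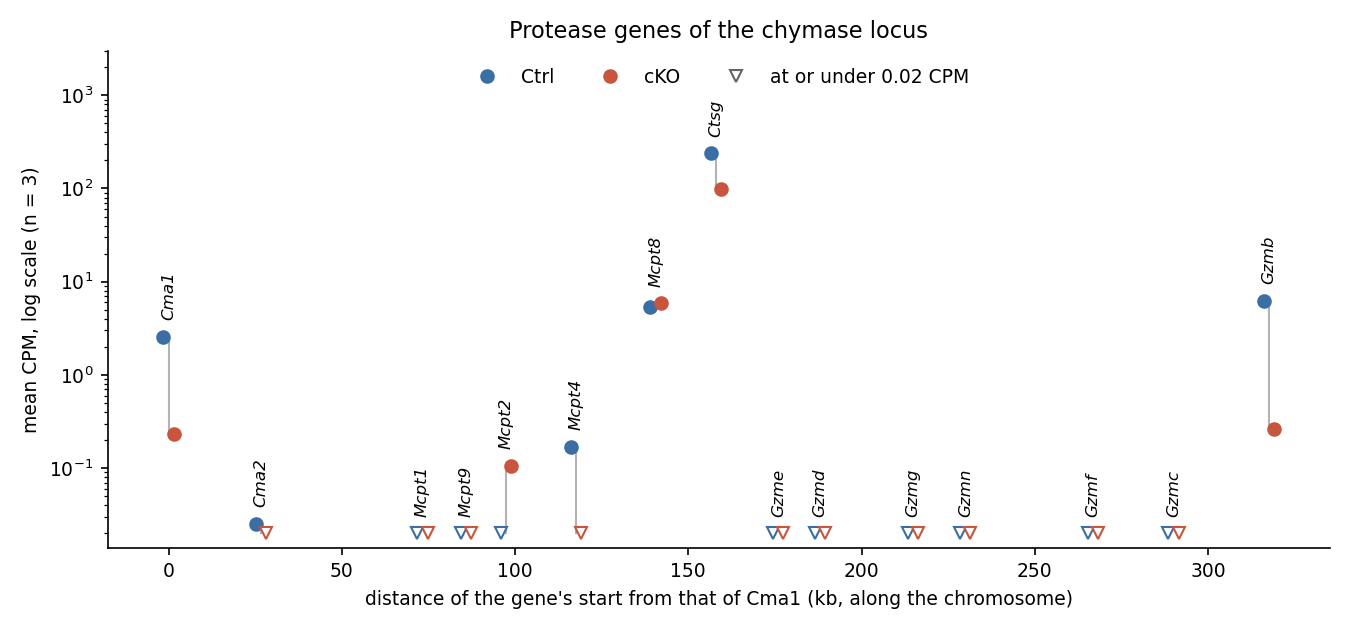
Mean CPM of the 3 Ctrl and of the 3 cKO libraries on a logarithmic axis for the protease genes from Cma1 to Gzmb, placed by the distance of their starts from that of Cma1 in kb, with open triangles for means at or under 0.02 CPM. Reads were concentrated on Cma1, Mcpt8, Ctsg and Gzmb, and the Ctrl and cKO points are far apart for Cma1 and Gzmb but not for Mcpt8.

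Around all 10 members, 80 other protein-coding genes start within 200000 bases of a member's start, and 38 of them were tested. Among these 38, 6 were lower and 1 was higher, beside 3.79% lower and 3.88% higher among all genes tested. Of the 80, 30 had at most 3 reads in every library. Ms4a3, a gene of granulocyte progenitors that starts 17132 bases from Ms4a2, was lower (log2 fold change -1.69, adjusted p = 2.7e-04), as was Ms4a6c in the same gene family (-0.50, adjusted p = 0.049). Near Hdc, Atp8b4, a putative phospholipid transporter, was lower (log2 fold change -1.03, adjusted p = 8.7e-05). Baiap3 near Prss34 was lower as well (-1.96, adjusted p = 0.0067). Near Cma1, Nop9 was lower (log2 fold change -0.35, adjusted p = 0.025) and Nynrin higher (0.42, adjusted p = 0.029), beside Ctsg given above.

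Promoters are shown as a description of sequence. Whether the product of Setd1b acts at them was not tested. RefSeq (GRCm38.p6) lists a promoter for 10 of 10 members, and the first was used for Il1rl1, with 2 listed, and for Mitf, with 3. Each line holds the 250 bases before the transcript start in RefSeq, 5′ to 3′ on the strand of the gene. Matches to the GATA, RUNX and E-box motifs are in capitals, and those to an ETS motif, searched as well, are not. The windows of Fcer1a, Cma1 and Hdc are not printed. The motifs in capitals were a GATA motif (AGATAA or AGATAG, and TGATAA or TGATAG), a RUNX motif (TGTGGT or TGCGGT) and an E-box of the kind MITF can bind (CACGTG or CATGTG), all on both strands and with overlaps allowed. The windows are chr19:11623720-11623969 (minus) for Ms4a2, chr1:40429320-40429569 (plus) for Il1rl1, chr3:20242182-20242431 (minus) for Cpa3 and chr17:25298144-25298393 (plus) for Prss34. Those of the other 3 are chr14:56262335-56262584 (minus) for Gzmb, chr14:56085198-56085447 (minus) for Mcpt8 and chr6:97806808-97807057 (plus) for Mitf. The RefSeq start was that of the gene in the count table for Ms4a2, Il1rl1, Cpa3, Prss34 and Mitf. It lay 74 bases upstream of it for Gzmb, 15 for Fcer1a and 14 for Cma1, and inside the gene of the table by 19 bases for Mcpt8 and 621 for Hdc.
Ms4a2: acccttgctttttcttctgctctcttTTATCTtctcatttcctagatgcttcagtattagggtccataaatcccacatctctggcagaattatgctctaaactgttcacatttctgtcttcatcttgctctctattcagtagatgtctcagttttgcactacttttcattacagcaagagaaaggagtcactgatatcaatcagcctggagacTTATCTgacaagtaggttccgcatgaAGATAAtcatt
Il1rl1: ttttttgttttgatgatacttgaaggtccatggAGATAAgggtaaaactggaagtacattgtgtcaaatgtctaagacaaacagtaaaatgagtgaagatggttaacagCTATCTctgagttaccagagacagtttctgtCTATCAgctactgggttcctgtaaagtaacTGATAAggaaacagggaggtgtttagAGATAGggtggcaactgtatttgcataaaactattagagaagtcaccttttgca
Cpa3: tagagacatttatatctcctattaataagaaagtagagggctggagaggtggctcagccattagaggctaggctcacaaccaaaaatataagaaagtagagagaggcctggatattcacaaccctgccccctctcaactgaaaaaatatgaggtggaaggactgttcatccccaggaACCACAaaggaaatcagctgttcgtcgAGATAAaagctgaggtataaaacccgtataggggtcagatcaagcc
Prss34: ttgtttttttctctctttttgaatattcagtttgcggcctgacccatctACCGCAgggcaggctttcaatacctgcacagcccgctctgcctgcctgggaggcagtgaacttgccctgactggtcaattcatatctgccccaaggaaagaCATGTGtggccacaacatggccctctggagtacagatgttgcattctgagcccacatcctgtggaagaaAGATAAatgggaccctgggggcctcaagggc
Gzmb: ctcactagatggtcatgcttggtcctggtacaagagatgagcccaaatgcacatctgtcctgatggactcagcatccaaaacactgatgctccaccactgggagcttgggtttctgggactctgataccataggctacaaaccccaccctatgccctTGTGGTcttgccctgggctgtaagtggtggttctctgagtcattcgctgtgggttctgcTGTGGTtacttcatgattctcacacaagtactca
Mcpt8: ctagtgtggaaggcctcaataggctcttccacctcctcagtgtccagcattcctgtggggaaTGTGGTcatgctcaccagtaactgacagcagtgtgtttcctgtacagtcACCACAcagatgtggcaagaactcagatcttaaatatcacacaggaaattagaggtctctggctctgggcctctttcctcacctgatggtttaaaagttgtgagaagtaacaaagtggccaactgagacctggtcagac
Mitf: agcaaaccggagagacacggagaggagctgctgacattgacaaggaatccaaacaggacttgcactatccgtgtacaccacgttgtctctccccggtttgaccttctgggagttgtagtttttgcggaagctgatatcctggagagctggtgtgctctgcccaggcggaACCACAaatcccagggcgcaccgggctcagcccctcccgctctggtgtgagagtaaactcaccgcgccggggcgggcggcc

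Among the first listed promoters, 7 of the 10 members (70.0%) held a GATA motif, against 27.1% of 27025 promoters of the same length. Il1rl1 held 5, at 217, 141, 110, 80 and 54 bases before the start, and Ms4a2 held 3, at 224, 37 and 11 bases. Cpa3 and Prss34 held 1 each, at 46 and 31 bases, and Fcer1a, Cma1 and Hdc 1 each, at 92, 79 and 221 bases. No match was found in these windows of Gzmb, which fell, and of Mcpt8 and Mitf, which did not pass the test. The other 2 promoters listed for Mitf did hold it, at 36 bases in the second and at 202 and 13 bases in the third. The RUNX motif occurred in 6 members (60.0%, against 18.7% of all promoters), among them Gzmb and Mcpt8 with 2 each, and the E-box in Fcer1a and Prss34 (20.0%, against 17.6%). An ETS motif that PU.1 can bind (GAGGAA, both strands) occurred in 2 members (20.0%, against 23.1%). A GATA motif was thus present in members that fell and in members that did not pass the test, and missing from some of either kind. The windows were poor in CpG, with a median of 1.5 CpG per promoter against 6 for all promoters, and 90.0% of them held at most 3 CpG, against 38.1% of all promoters. Mitf was the exception with 15 CpG and an observed over expected ratio of 0.676. A ratio above 0.6 was reached by 1 of the 10 members (10.0%), against 34.5% of all promoters. Histone marks at these promoters are not analysed here, and a match is a description of letters only.

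Beyond the members, the apparatus behind the IgE receptor was expressed in both groups. Of 16 genes of IgE receptor signaling, all were tested, 1 was lower and 2 were higher, with a median log2 fold change of 0.05. These counts stand beside 3.79% lower and 3.88% higher among all genes tested. Lat2, an adaptor at the receptor, was lower (-0.51, adjusted p = 0.018). Plcg1, the phospholipase that starts calcium release, was higher (log2 fold change 0.47, adjusted p = 8.0e-04), as was the kinase Fyn (0.47, adjusted p = 0.0053).

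Of 21 other receptor genes of mast cells and basophils, 14 were tested, 1 was lower and 2 were higher, with a median log2 fold change of -0.03. The shares over all genes tested were 3.79% lower and 3.88% higher. Fcgr3, a low-affinity IgG receptor, was lower (-1.34, adjusted p = 0.0031). Csf2rb2, the IL-3-specific β chain, was higher (log2 fold change 1.24, adjusted p = 2.3e-04), and so was the IL-4 receptor chain Il4ra (0.26, adjusted p = 0.049). Kit, the stem cell factor receptor on which mast cells depend and a gene of the sort gate, differed by -0.04 on the log2 scale (adjusted p = 0.84). Mrgprb1 had no read in any library, and Mrgprb2, a receptor of mature mast cells, had at most 1.

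Of 23 other granule and mediator genes, 11 were tested, 2 were lower and 3 were higher, with a median log2 fold change of 0.10. Beside these counts, 3.79% of all genes tested were lower and 3.88% higher. Alox5, the 5-lipoxygenase that starts leukotriene synthesis, was lower (-1.33, adjusted p = 1.0e-04) beside Ctsg. Ptgs1, the cyclooxygenase that starts prostaglandin synthesis, was higher (log2 fold change 0.70, adjusted p = 0.0018). The vesicular monoamine transporter Slc18a2, which loads histamine into granules, was higher (0.41, adjusted p = 0.0080), as was Rab27b, a GTPase of granule release (0.68, adjusted p = 0.022). The mast cell tryptase Tpsb2 had 0, 0 and 26 reads in Ctrl AI03, AI54 and AI56, and 2, 0 and 3 reads in cKO AI02, AI55 and AH74.

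Of 18 regulators, all were tested, 5 were lower and none was higher, with a median log2 fold change of -0.11. Over all genes tested, 3.79% were lower and 3.88% higher. Cebpa, a regulator of granulocyte fate, was lower (-0.68, adjusted p = 5.2e-04), as were Tfec, a relative of Mitf (-1.13, adjusted p = 7.2e-04), and Irf8, which basophil and monocyte progenitors use (-0.78, adjusted p = 7.6e-04). Gata1 (-0.64, adjusted p = 0.0035) and Zeb2 (-0.24, adjusted p = 0.028) completed the 5. Gata2, which mast cells and basophils require and which is bound at many of their genes, differed by -0.15 on the log2 scale (adjusted p = 0.42). At an unadjusted p under 0.05, edgeR gave 0 of the 18 higher and DESeq2 gave 0.

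**Figure D5:**
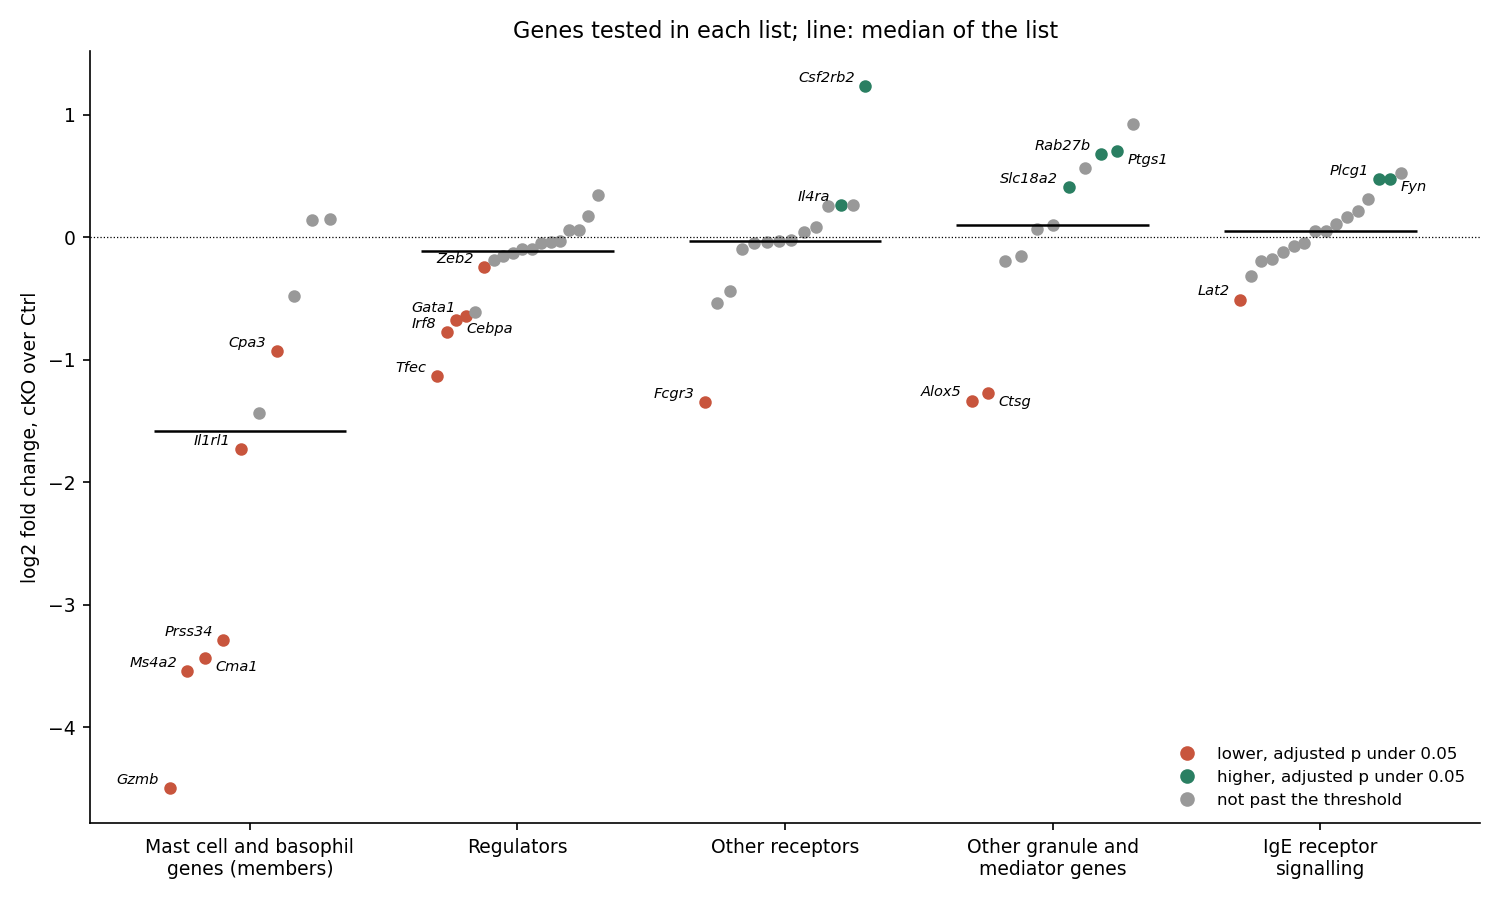
Log2 fold change, cKO over Ctrl, of every tested gene in the member list and in the 4 other lists, 1 point per gene, with a horizontal line at the list's median and colors for genes past the threshold. The medians of the 4 other lists lie between -0.11 and 0.10, that of the members at -1.58 with Prss34 drawn at its bound.

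Markers of other cells were examined, although the lineage cocktail and the c-Kit+ gate are meant to remove mature granulocytes, macrophages and lymphocytes. The counts of markers called below stand beside 3.79% lower and 3.88% higher among all genes tested. The genes of the gate itself, Kit, Ly6a, Cd34 and Flt3, summed to 1111 to 1258 CPM in Ctrl and 1064 to 1174 CPM in cKO, and 0 of the 4 passed the threshold (edgeR, 1 at an unadjusted p under 0.05, and 0 with DESeq2). Of 7 genes of the lineage cocktail, 3 were tested and 1, Itgam, was higher (log2 fold change 0.43, adjusted p = 0.019), with sums of 39.5 to 43.6 CPM in Ctrl and 49.7 to 64.3 CPM in cKO. Cd3e, Cd8a and Ly6g had at most 3 reads in every library.

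Mature mast cell markers were nearly absent. Summed over 6 genes they gave 0.477 to 5.25 CPM in Ctrl and 0 to 0.912 CPM in cKO, mostly from Cma1, the 1 gene of the list that was tested, and Tpsab1 and Mrgprb1 were at 0 in every library. The 4 mature basophil markers summed to 6.91 to 8.42 CPM in Ctrl and 4.76 to 8.11 CPM in cKO, mostly from Mcpt8, and of the 2 tested 1, Prss34, was lower. The eosinophil markers summed to 15.2 to 19.8 CPM in Ctrl and 8.21 to 11.4 CPM in cKO, and 1 of the 2 tested of 8 was lower, the granule protein gene Prg2 (log2 fold change -3.73, adjusted p = 0.0012). Prg2 had 68, 91 and 36 reads in Ctrl AI03, AI54 and AI56, and 9, 4 and 0 reads in cKO AI02, AI55 and AH74. It passed the filter on low counts only through its Ctrl libraries, so that its direction was fixed by the filter. Siglecf, the other marker tested, did not pass the threshold (log2 fold change -0.28, adjusted p = 0.35). It gave much of the sums, with means of 9.78 CPM in Ctrl and 8.05 CPM in cKO. Il5ra, which was not tested, went the other way in the mean through cKO AI02. Its reads were 1, 1 and 4 in the Ctrl libraries and 16, 3 and 2 in the cKO libraries, in the order above. Ear1 and Ear2 had at most 3 reads in every library.

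Of 12 cytotoxic lymphocyte markers, 5 were tested and 2 were lower, Nkg7 (log2 fold change -0.85, adjusted p = 8.2e-04) and Klrk1 (-2.79, adjusted p = 0.011). Klrk1 had 25, 34 and 34 reads in Ctrl AI03, AI54 and AI56, and 0, 6 and 6 reads in cKO AI02, AI55 and AH74. It too passed the filter on low counts only through its Ctrl libraries, which fixed its direction. The sum of the 12 markers was 51.7 to 65.1 CPM in Ctrl and 26.6 to 35.5 CPM in cKO, without overlap. It came mostly from Nkg7, with means of 48.4 CPM in Ctrl and 26.8 CPM in cKO, so that the fall of the sum mainly reflects this gene. Over the 12 markers, the cKO values lay below all Ctrl values for 4, Gzma, Nkg7, Klrk1 and Ncr1, against 13.4% of all genes tested. They lay above them for 0 markers, against 14.0%. Gzma and Ncr1 had too few reads for the test. Klrb1c went the other way, with a mean of 1.31 CPM in Ctrl and 2.01 CPM in cKO (log2 fold change 0.68, adjusted p = 0.47). Prf1, also untested, had 0.473 CPM in Ctrl and 0.489 CPM in cKO. Gzma had 24, 11 and 16 reads in Ctrl AI03, AI54 and AI56, and 5, 8 and 3 reads in cKO AI02, AI55 and AH74. Ncr1, a receptor of natural killer cells, had 17, 18 and 8 reads in the same Ctrl libraries and 1, 1 and 3 in the cKO libraries. Gzmc was at 0 in every library, and the T cell genes Cd3e and Cd8a had at most 3 reads. The markers of group 2 innate lymphoid cells, which also carry ST2, summed to 20.0 to 32.3 CPM in Ctrl and 21.5 to 24.9 CPM in cKO, and 0 of 4 tested of 9 passed the threshold (edgeR, 0 at an unadjusted p under 0.05, and 0 with DESeq2). Of 8 macrophage markers, all tested, 2 were lower, Csf1r (log2 fold change -0.70, adjusted p = 0.0086) and Cd68 (-0.60, adjusted p = 0.030). Adgre1 went the other way without passing the threshold (0.98, adjusted p = 0.27), and C1qa was level (-0.06, adjusted p = 0.96). The sums were 130.1 to 137.6 CPM in Ctrl and 90.6 to 114.4 CPM in cKO. They came mostly from Lyz2, with 80.5 to 88.8 CPM in Ctrl and 61.6 to 80.4 CPM in cKO (-0.23, adjusted p = 0.14). The neutrophil primary granule genes Mpo, Elane and Prtn3 were lower, as was Ms4a3 of granulocyte progenitors. The sums over these 4 genes were 2600 to 3196 CPM in Ctrl and 375 to 628 CPM in cKO. The part of these cells in the falls of the members was not tested.

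The genes whose course over the 6 libraries came nearest to the mean course of the 10 members were sought among those with a mean of at least 1 CPM. Likeness was measured as the root mean square distance between centered log2 CPM profiles. The nearest was Gm19590, with a distance of 0.12 and a mean of 13.3 ± 3.00 CPM (SD, n = 3) in Ctrl and 3.43 ± 0.738 CPM in cKO. Slc22a23, a gene of the organic ion transporter family, followed at a distance of 0.20, then ENSMUSG00000084956 at 0.22 and 4930519L02Rik at 0.24. Ank1, which encodes an ankyrin of the red cell membrane skeleton, was the fifth at 0.25, with 35.4 ± 9.92 CPM in Ctrl and 8.67 ± 2.00 CPM in cKO. Because the profile follows the labelled groups, these distances are given as a description, without a test.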

How the data were processed

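The authors aligned single reads of 75 bases to GRCm38 with GSNAP and counted them per gene with featureCounts 1.5.0 on Ensembl 81 models, on the strand of the gene; the deposited values are raw counts, without normalization or pooling of mice. A read had to map with a quality of at least 1. The libraries were made from total RNA with a stranded SMARTer kit. Symbols came from GENCODE M21 by gene identifier, and 0 further columns of samples were left unused.

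From the counts, edgeR 4.0.16 in R 4.3.3 was fitted to the 6 libraries with TMM normalization, filterByExpr and no term but genotype. The quasi-likelihood test was adjusted over all genes tested. Standard errors were derived from the log2 fold change and the F statistic. The procedure was tested on simulated data. DESeq2 1.42.0, other filters and scalings, the library series as a covariate and the omission of each mouse were alternatives. The samples are separate mice.

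The members and the lists were chosen with earlier results of these data known. Named were the members, the 3 genes of each other list with the smallest adjusted p-values, marker genes at the floor that define a cell type, neighboring genes past the threshold, and the 5 nearest profiles. Fcer1g, Kit, Gata1, Gata2, Zeb2, Tpsb2, Mrgprb2, Prtn3, Il5ra, Gzma, Ncr1, Klrb1c, Prf1, Adgre1, C1qa and Lyz2 were named after their values had been seen. Reads of 75 bases from the exons of 8 members matched no other gene, and 1.22% of those of Ms4a2 and 1.67% of those of Cma1 did.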

Additional observations from a re-analysis of the deposited data

How the results depend on the processing

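No paired analysis was possible because the sample labels give mouse names and no replicate numbers shared between the groups, and which of the littermates share a litter is not given in the sources used here. Ms4a2, Il1rl1, Cpa3, Gzmb and Prss34 passed the threshold under every alternative in which they were tested, and Fcer1a, Mcpt8 and Mitf under none. For Gzmb and Prss34 this is not support of the same kind. Both passed the main filter only through their Ctrl libraries, which fixed their direction. Of the 10 members, 6 were called lower, and 5 to 7 when a mouse was left out, but 3 when at least 10 counts were required in every library, a filter that removes Prss34, Gzmb, Cma1 and Fcer1a from the test. Without cKO AI02 the log2 fold change of Mcpt8 was -0.14 (adjusted p = 0.82), and leaving out other mice gave up to 0.32. Over the table, 1164 genes were called, 513 at a threshold of 0.01, and 604 (without cKO AI55) to 1125 when a mouse was left out, with 665 without Ctrl AI56 and 739 without cKO AH74. In IgE receptor signaling, the number lower was 0 instead of 1 at a threshold of 0.01, and 0 to 1 with a mouse left out (0 without Ctrl AI54 or cKO AH74). Among the other receptors, the number lower was 2 with DESeq2, 3 without a filter, 3 with the library series as a covariate and 1 to 3 with a mouse left out, instead of 1. The number higher there was 1 with DESeq2's size factors, 1 with the series and 1 at a threshold of 0.01, and 1 to 2 with a mouse left out, instead of 2. The cause was not tested. Fcer1a, Cma1, Gzmb and Prss34 rest on few reads, with at most 134 in a library, which limits their precision.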
